A study of Homo sapiens with 6 samples.

Results

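The genes of the primary cilium and of intraflagellar transport (IFT) were taken as 52 symbols that had been listed by name, and all 52 were found among the 25349 genes of the deposited count table. They were set out in 7 role groups: 11 genes of the IFT-B complex, 6 of the IFT-A complex, 4 of the IFT motors, 10 of the BBSome and its partners, ARL3 alone, 15 of the transition zone and 5 of the basal body and its cap. The cells were SCC-9, an established human line of squamous tongue cancer, grown in serum with hydrocortisone. In 3 libraries the cells had received an siRNA (siE7) aimed at exon 7 of MKI67, which encodes the proliferation protein Ki67, and in 3 control libraries a nonspecific siRNA (siNC). Both groups received a lipid reagent with 10 nM siRNA on day 0 and, after passage, on day 2, and no untreated cells are among the 6 libraries. Several siRNAs against exon 7 are described by the study, and which of them was used for these libraries is not given in the sources used here. Whether the replicates came from separate cultures is not stated either, so that the p-values measure the spread between these libraries, which may be technical.

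The primary cilium is a single antenna built on the older centriole of a resting cell, and it is taken down again when the cell divides. IFT-B trains, driven by kinesin, carry material to the tip, and IFT-A trains with dynein bring it back, while the BBSome moves membrane receptors out of the cilium. The transition zone at the base acts as the gate, and the distal appendages of the basal body anchor the structure to the membrane. Read counts measure the mRNA of these genes and not the cilia themselves, and in bulk RNA fewer cells expressing a gene and less RNA per cell cannot be told apart.

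The libraries held from 25608192 to 29550264 counts on genes. MKI67 stood at 1072, 1029 and 1077 CPM (counts scaled to the library size, replicates 1 to 3) with siNC and 112, 124 and 108 CPM with siE7, and it fell by 3.21 on the log2 scale (± 0.11 SE, edgeR adjusted p = 6.71e-08). The 7 squamous markers were all detected, with a summed level of 21689 to 23071 CPM with siNC and 18719 to 24622 CPM with siE7. At an edgeR adjusted p under 0.05, 5 of them were lower with siE7, the cadherin CDH1 among them, beside 16.0% of all tested genes. The 7 fibroblast markers summed to 16.5 to 19.7 CPM with siNC and 18.3 to 24.2 CPM with siE7, nearly all of it from COL1A1, with LUM and COL3A1 at or near 0, and the 5 leukocyte markers to at most 0.122 CPM. Replicate 1 of siE7 stood apart from the other 2 siE7 libraries, with a chi-square per degree of freedom of 61.1 and 72.7 against them, compared with 5.54 to 6.22 for every other pair within a group. Calls among the members and in the role groups with more than 1 gene are therefore given with and without it. Values of single genes are given with all libraries unless stated.

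Transfection with siE7 was followed by higher mRNA levels of many of these genes. All 52 passed the filter on low counts. Of them 22 (42.3%) were higher and 1, TCTN3, was lower at an adjusted p under 0.05, and 29 were not called. Over all 14661 genes tested, 18.0% were higher and 16.0% lower by the same rule. A log2 fold change over 1 was reached together with that p-value by 11 members (21.2%) upward and by none downward, where 7.38% of all genes rose and 4.84% fell by as much. Every call came from the quasi-likelihood test of edgeR, with p-values adjusted by the Benjamini-Hochberg method over all 14661 genes. Without the condition on the fold, 29 members were higher and 1 lower at an unadjusted p under 0.05, beside 24.5% and 20% of all tested genes. DESeq2 called 20 members higher and 1 lower, beside 8.77% and 10.4% of the 25349 genes of the table. Those shares include genes that failed the filter on low counts, which all members passed. They are therefore not comparable with the shares over 14661 genes.

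The median log2 fold change of the members was 0.571, beside 0.0768 for all tested genes, and 43 of 52 lay above 0, beside 55.6% of all genes. In 25 members (48.1%) each siE7 library was above each siNC library, beside 24.9% of all tested genes. An exact permutation test of 3 against 3 libraries cannot go below p = 0.1, so single genes were judged by the model across all genes. Scaling by library totals alone moved the median of all genes from 0.0768 to 0.245 and the split of calls from 2639 higher and 2351 lower to 4030 and 1632, and the median of the members then stood at 0.744 with 25 called higher.

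**Figure D1:**
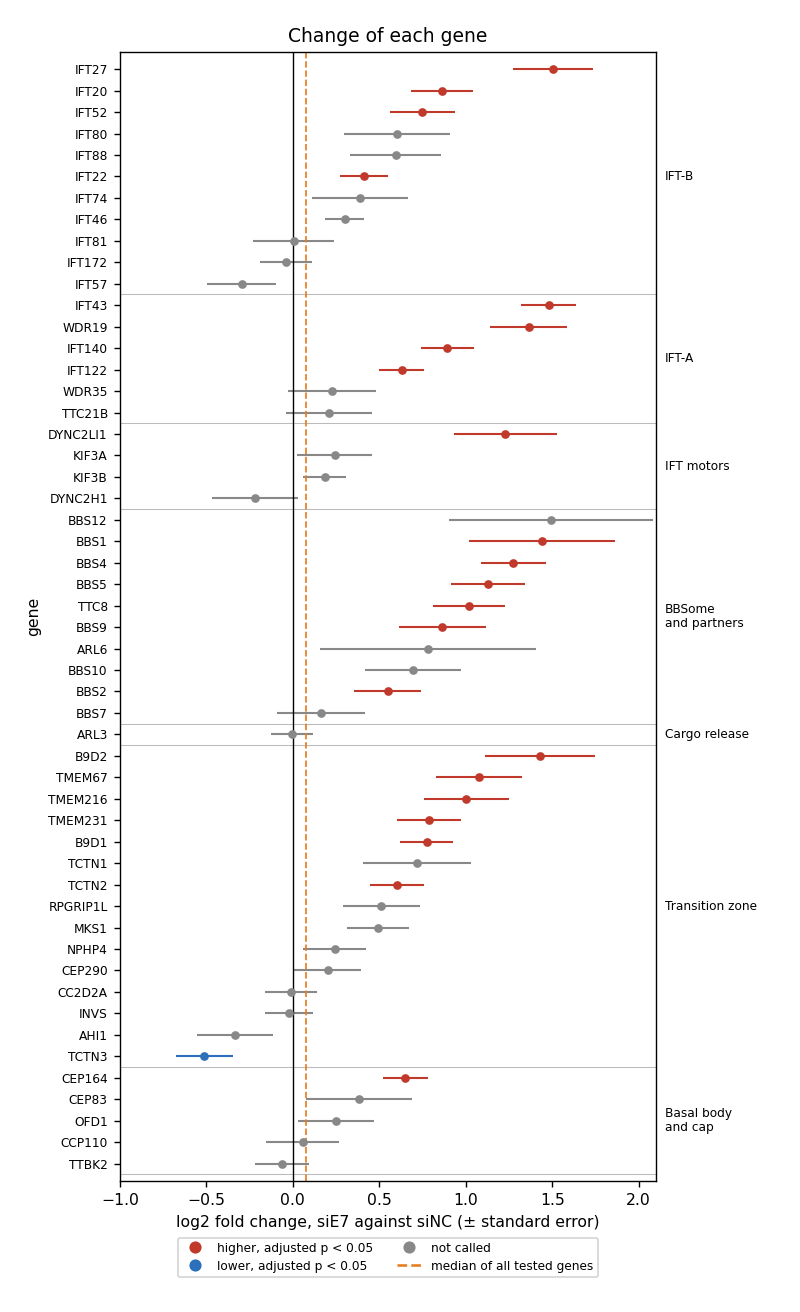
Log2 fold change of siE7 against siNC (x axis) with its standard error for each of the 52 genes (y axis), grouped by role, with red for genes called higher, blue for lower and grey for not called. Most points lie right of the dashed line at 0.0768, the median of all tested genes, and IFT27, IFT43 and BBS12 lie furthest right, BBS12 with a wide error.

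The library that stood apart mattered for the count. Without replicate 1 of siE7, 35 members (67.3%) were called higher, beside 28.9% of all genes in that fit, and 1 was lower. With any other single library left out, 30.8% to 38.5% of the members were called higher, beside 10.6% to 13.9% of all genes. With all libraries these shares were 42.3% and 18.0%, so calls gained or lost in such fits stand beside a like shift over all genes. The median ratio of the members to the siNC mean, on log2(CPM + 0.5), was 0.223 in siE7 replicate 1, 0.553 in replicate 2 and 0.516 in replicate 3, while all tested genes stood at 0.00186, 0.0751 and 0.0741. In 16 members replicates 2 and 3 were above every siNC library while replicate 1 was not, among them the IFT-B core genes IFT88 and IFT74, both kinesin subunits and the gate protein CEP290. The same count over all tested genes is not given here, so this pattern cannot be called particular to the members.

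**Figure D2:**
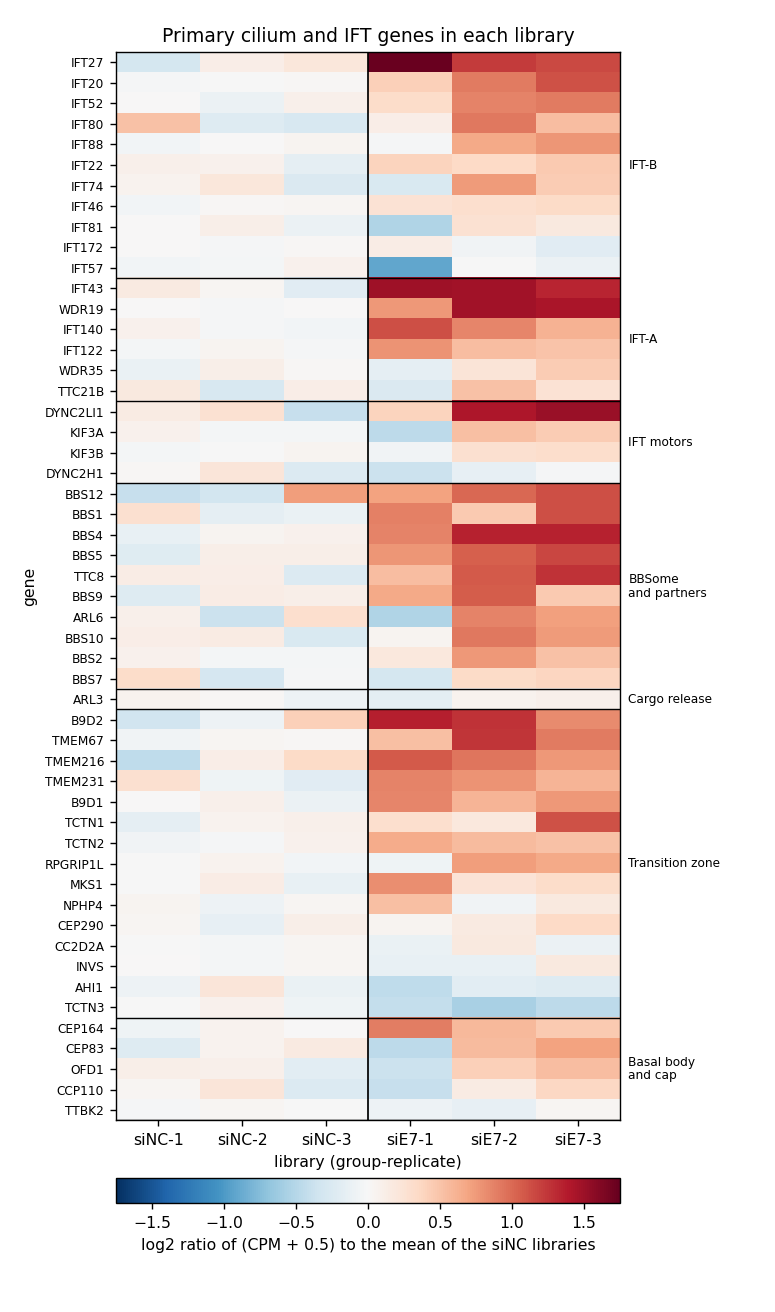
Log2 ratio of (CPM + 0.5) to the siNC mean for 52 genes (rows, by role group) in 6 libraries (columns), red for above and blue for below. The siE7 columns are mostly red, and in many rows siE7 replicate 1 is paler than replicates 2 and 3 or blue, with medians of 0.223, 0.553 and 0.516.

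This difference went with base composition. GC content of the canonical transcript ran from 33.5% to 61.5% over the members, with a median of 44.6% beside 49.2% for all tested genes. Across the 52 members, the log2 level of replicate 1 minus the mean of replicates 2 and 3 rose with GC content with a Spearman rho of 0.817, and across 14645 tested genes with 0.75. These are descriptions across genes that share the same 3 libraries. Of the 26 members under 45% GC, replicate 1 was the lowest siE7 library in 24, and 6 were called higher with all libraries and 16 without replicate 1. Of the 26 at or over 45% GC, it was the lowest in 8 and the highest in 14, and 16 were called higher with all libraries and 19 without it. The shares of all tested genes called in these ranges of GC content are not given here, so these counts cannot be called particular to the members. Spearman's rho of GC content with the log2 fold change itself was 0.285 over the members and -0.0709 over the 14645 tested genes. When the trend with GC content was removed from each library, an alternative added after seeing the data, 27 members were called higher (51.9%, beside 24.5% of all genes) and their median was 0.472. The part of base composition in the calls of single genes was not otherwise tested.

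**Figure D3:**
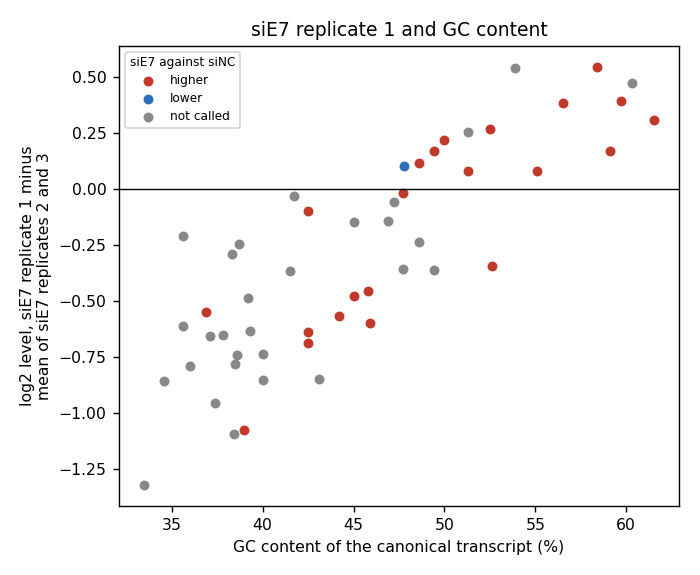
GC content of the canonical transcript in percent (x axis) and log2 level of siE7 replicate 1 minus the mean of siE7 replicates 2 and 3 (y axis) for the 52 genes, coloured by their call. Points rise from lower left to upper right, with a Spearman rho of 0.817, and most of the genes under 45% GC lie below 0.

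Members also differed by length. The 26 with the shorter canonical transcripts had a median log2 fold change of 0.733 and 14 called higher, and the 26 with the longer ones 0.241 and 8. The medians and shares called of all tested genes of those lengths are not given here, so this split cannot be called particular to the members. Spearman's rho of length with the fold change was -0.536 over the 52 members and -0.154 over all tested genes, again as a description. Exons of 30 members overlap another annotated gene, 15 of the 22 called higher among them and 8 of the 30 on the same strand. Those on the same strand are IFT43, IFT140, BBS1, BBS2, BBS5 and TMEM231, all called higher, and IFT80 and IFT172, not called. Overlaps were looked up for the members only, so no share over all genes stands beside these counts, and whether an overlap goes with a call was not tested. The library kit kept the strand, but whether the counting used it is not given in the sources used here, so reads of such pairs may be mixed.

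Many promoters of cilium genes hold an X-box, the site bound by RFX transcription factors. The letters GTNNCCNNNGNAAC were searched on both strands of the RefSeq promoters (assembly GRCh38.p14, 250 bases before to 50 after the start), where 47 of the 52 members had a promoter. A match was found in 6 members (12.8%), beside 3.44% of 10512 tested genes and 2.76% of all 27305 promoters. It was found in 3 of 18 members called higher (B9D1, B9D2 and TMEM231) and in 3 of the other 29 (AHI1, ARL6 and IFT57). AHI1, also a gene of the transition zone, was not called (log2 fold change -0.33), and its stretch is not shown. Whether a match goes with a call was not tested. The stretches of the members called higher, all of the transition zone, are shown so that their letters can be compared. They are written 5′ to 3′ on the strand of the gene, with the matching letters in capitals, which in B9D1 and TMEM231 match on the opposite strand. All 3 genes lie on the minus strand.
B9D1, chr17:19378085-19378114: ctgggactGTTACCTTGGCTACtggctccc
B9D2, chr19:41364136-41364165: agcctgctGTTGCCCCAGCAACaaccacgg
TMEM231, chr16:75556271-75556300: agccgtcgGTTGCCGTGGAGACcgaggcga
A match describes these letters only and is not a measured site. The fold changes of the RFX genes are given with the other lists.

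In the IFT-B complex 4 of 11 genes were higher (36.4%), with a median log2 fold change of 0.409. Without siE7 replicate 1 the number called was 8, and without siNC replicate 2 it was 2. Of all genes in those fits, 28.9% and 10.6% were called higher. IFT27, a small GTPase of the Rab family that links trains to the exit of the BBSome, stood at 2.55, 3.60 and 3.83 CPM with siNC and 12.1, 8.33 and 7.92 CPM with siE7. It rose most in the complex (log2 fold change 1.50 ± 0.23 SE, edgeR adjusted p = 0.000618), and its groups did not overlap, although replicate 1 was well above the other siE7 libraries. IFT20, which also sits at the Golgi and helps to sort membrane proteins to the cilium, stood at 13.9, 14.1 and 14.3 CPM with siNC and 18.96, 26.9 and 31.2 CPM with siE7. All siE7 libraries were higher than all siNC libraries, replicate 1 the least (log2 fold change 0.86 ± 0.18 SE, edgeR adjusted p = 0.00373).

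IFT52, a core subunit that joins the parts of the complex, stood at 8.99, 8.29 and 9.54 CPM with siNC and 11.3, 16.7 and 17.1 CPM with siE7. Its groups were apart (log2 fold change 0.75 ± 0.19 SE, edgeR adjusted p = 0.00974), and the call was lost without siNC replicate 2. IFT22, another small GTPase-like subunit, stood at 17.3, 17.1 and 14.5 CPM with siNC and 21.4, 20.9 and 22.6 CPM with siE7. The difference was small but held in every library (log2 fold change 0.41 ± 0.14 SE, edgeR adjusted p = 0.039). It was lost under 9 of 14 alternatives, DESeq2 and RLE scaling among them, with adjusted p-values from 0.00334 to 0.197.

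IFT46, a core subunit with the highest level per kilobase of transcript in the complex, stood at 35.4, 37.3 and 37.6 CPM with siNC and 44.03, 45.4 and 46.4 CPM with siE7. Each siE7 library was above each siNC library, but the call was missed (log2 fold change 0.30 ± 0.11 SE, edgeR adjusted p = 0.0574). IFT81, whose product binds tubulin together with IFT74, stood at 5.55, 6.005 and 5.11 CPM with siNC and 3.71, 6.74 and 6.28 CPM with siE7 and was the nearest to no change (log2 fold change 0.01 ± 0.23 SE, edgeR adjusted p = 0.989). Replicate 1 of siE7 lay under all siNC libraries and replicates 2 and 3 above them. The subunits not called ran from -0.30 for IFT57 to 0.60 for IFT80.

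In the IFT-A complex, which returns material from the tip, 4 of 6 genes were higher (66.7%), with a median of 0.761. Without siE7 replicate 1 the number called was the same, but the median was lower, at 0.579. IFT43 stood at 7.98, 7.29 and 6.13 CPM with siNC and 20.6, 20.5 and 18.6 CPM with siE7. It had the smallest adjusted p of all members, and every siE7 library was far above every siNC library (log2 fold change 1.48 ± 0.16 SE, edgeR adjusted p = 5.62e-05). The gene spans chr14:75902136-76084585 (GRCh38), and its exons overlap those of TTLL5 on the same strand. WDR19, also named IFT144, stood at 3.69, 3.60 and 3.67 CPM with siNC and 6.54, 10.98 and 10.7 CPM with siE7. The siNC libraries were nearly equal and each siE7 library higher (log2 fold change 1.36 ± 0.22 SE, edgeR adjusted p = 0.00088), replicate 1 the least. IFT140 stood at 17.5, 16.4 and 16.1 CPM with siNC and 36.7, 30.3 and 25.6 CPM with siE7, with replicate 1 as the highest (log2 fold change 0.89 ± 0.15 SE, edgeR adjusted p = 0.00125). IFT122 stood at 21.6, 22.8 and 21.9 CPM with siNC and 38.5, 32.5 and 31.4 CPM with siE7, in the same order (log2 fold change 0.63 ± 0.13 SE, edgeR adjusted p = 0.00365). Neither gene's groups overlapped, and IFT140 overlaps TELO2 and IFT122 overlaps MBD4, both on the opposite strand. Exons of IFT140 also overlap another annotated gene on its own strand. TTC21B, the subunit nearest to no change, stood at 4.54, 3.20 and 4.36 CPM with siNC and 3.27, 5.91 and 4.84 CPM with siE7, and its groups overlapped (log2 fold change 0.21 ± 0.25 SE, edgeR adjusted p = 0.541). WDR35 was not called either, at 0.23.

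Of the 4 motor genes only DYNC2LI1, the light intermediate chain of the dynein that moves trains back, was called, and the median was 0.213. That median was 0.336 without siE7 replicate 1, 0.098 without replicate 2, 0.12 without replicate 3 and 0.391 with library totals. DYNC2LI1 stood at 5.87, 6.45 and 3.86 CPM with siNC and 7.05, 14.9 and 15.96 CPM with siE7. Replicate 1 of siE7 was just above the highest siNC library and replicates 2 and 3 far above it (log2 fold change 1.23 ± 0.30 SE, edgeR adjusted p = 0.00829). KIF3B, a kinesin subunit of outward trains and the highest motor gene per kilobase, stood at 63.3, 64.7 and 67.3 CPM with siNC and 62.2, 79.2 and 80.5 CPM with siE7. Replicates 2 and 3 of siE7 were higher than the controls and replicate 1 was not (log2 fold change 0.18 ± 0.12 SE, edgeR adjusted p = 0.281). Without siE7 replicate 1 KIF3A and KIF3B were called too, which made 3 of 4. The dynein heavy chain DYNC2H1 had a log2 fold change of -0.22 ± 0.25 (SE).

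The BBSome and its partners had the highest median of the groups with more than 1 gene, 0.942, and 6 of 10 were higher. Without siNC replicate 2 the number was 3, and without siE7 replicate 1 it was 9, with a median of 1.17. All genes in those fits were called higher at shares of 10.6% and 28.9%. BBS4, a subunit that also binds the satellite protein PCM1, stood at 4.70, 5.40 and 5.49 CPM with siNC and 9.88, 13.9 and 13.9 CPM with siE7. It had the smallest adjusted p in the group (log2 fold change 1.27 ± 0.19 SE, edgeR adjusted p = 0.000477), with no overlap. TTC8, another subunit, also named BBS8, stood at 9.48, 9.45 and 7.23 CPM with siNC and 12.8, 18.8 and 21.5 CPM with siE7, again without overlap and with replicate 1 lowest among the siE7 libraries (log2 fold change 1.02 ± 0.21 SE, edgeR adjusted p = 0.00335). BBS5, the subunit that binds membrane lipids, stood at 2.23, 2.88 and 2.88 CPM with siNC and 4.86, 6.01 and 6.61 CPM with siE7. Its siE7 libraries were all higher than its siNC libraries (log2 fold change 1.13 ± 0.21 SE, edgeR adjusted p = 0.00222).

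BBS1, the subunit that ARL6 binds, was a low gene with 8 to 46 counts per library, at 0.608, 0.320 and 0.341 CPM with siNC and 1.18, 0.761 and 1.50 CPM with siE7. Its groups were apart (log2 fold change 1.44 ± 0.42 SE, edgeR adjusted p = 0.0221), but the call was lost without siNC replicate 2, without siNC replicate 3 and without siE7 replicate 3. The exons of BBS1 overlap ZDHHC24 on the opposite strand and another annotated gene on the same strand. BBS9 stood at 1.74, 2.36 and 2.31 CPM with siNC and 3.64, 4.96 and 3.11 CPM with siE7, and its groups were apart as well (log2 fold change 0.86 ± 0.25 SE, edgeR adjusted p = 0.0207). Its call was lost when any siNC library or siE7 replicate 2 was left out. BBS2 stood at 5.75, 5.28 and 5.30 CPM with siNC and 6.28, 9.60 and 8.01 CPM with siE7, the called member closest to the threshold (log2 fold change 0.55 ± 0.20 SE, edgeR adjusted p = 0.0495). It was lost under 9 of 14 alternatives, with adjusted p-values from 0.000645 to 0.205. BBS7, the nearest to no change, stood at 5.71, 3.56 and 4.39 CPM with siNC and 3.54, 5.76 and 5.99 CPM with siE7, where the groups overlapped (log2 fold change 0.16 ± 0.25 SE, edgeR adjusted p = 0.648).

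The partners were not called. BBS10 and BBS12 belong to the chaperonin-like proteins that assemble the BBSome, and ARL6 recruits it to membranes. BBS12 had a log2 fold change of 1.49 ± 0.59 (SE, edgeR adjusted p = 0.0711), from 3 to 40 counts per library. ARL6 stood at 0.78 ± 0.63 from 5 to 35 counts, and BBS10 at 0.70 ± 0.28. The standard errors of BBS12 and ARL6 were the widest of all members. Without siE7 replicate 1 all 3 partners were called higher. ARL3, the GTPase that releases lipid-anchored cargo in the cilium, stood at 47.2, 45.8 and 42.5 CPM with siNC and 40.1, 47.1 and 47.8 CPM with siE7. The groups overlapped, and the difference was near 0 (log2 fold change -0.0043 ± 0.12 SE, edgeR adjusted p = 0.981).

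**Figure D4:**
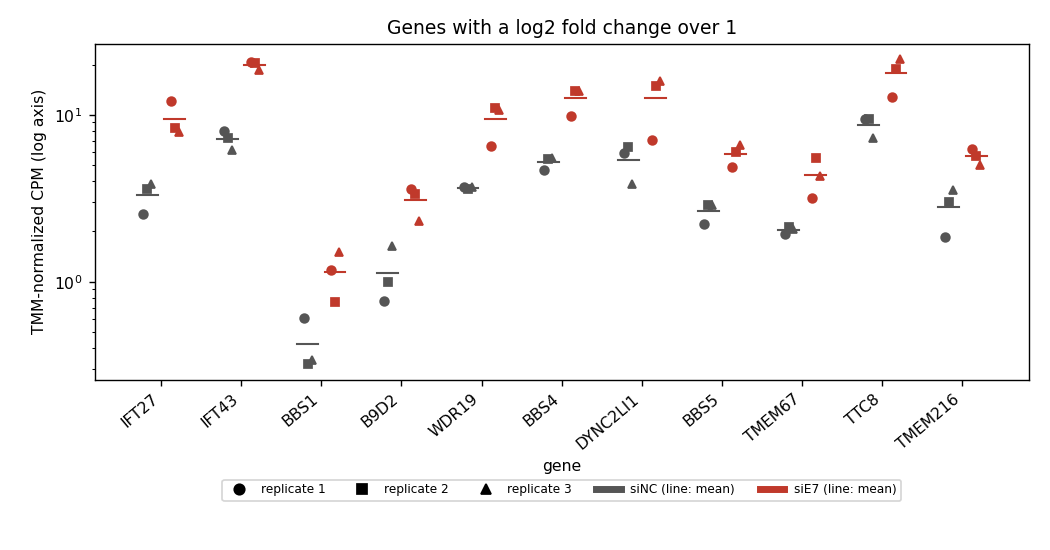
TMM-normalized CPM on a log axis (y) of the 11 genes with a log2 fold change over 1 and an adjusted p under 0.05 (x), with 1 symbol per replicate, siNC in grey and siE7 in red, and a line at each mean. In each gene all 3 siE7 libraries lie above all 3 siNC libraries, from IFT27 at 1.50 to TMEM216 at 1.00.

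In the transition zone 6 of 15 genes were higher and 1 was lower, with a median of 0.512. Without siE7 replicate 1 the calls were 8 higher and 1 lower, with a median of 0.497. The genes called higher with all libraries belong to the MKS module of the gate, which joins membrane proteins, tectonics and B9-domain proteins. Listed genes of that module that were not called higher include TCTN1, TCTN3, CC2D2A and MKS1. MKS1 missed the call (log2 fold change 0.49 ± 0.18 SE, edgeR adjusted p = 0.0526). B9D2 stood at 0.770, 1.001 and 1.63 CPM with siNC and 3.58, 3.33 and 2.32 CPM with siE7. It rose most in the group (log2 fold change 1.43 ± 0.32 SE, edgeR adjusted p = 0.00532), its siE7 libraries were all above its siNC libraries, and it overlaps TMEM91 on the opposite strand. Its partner B9D1 stood at 8.34, 8.85 and 7.72 CPM with siNC and 15.3, 12.8 and 14.4 CPM with siE7, without overlap (log2 fold change 0.77 ± 0.16 SE, edgeR adjusted p = 0.00309), and it overlaps EPN2 and MAPK7. The promoters of both hold the X-box letters searched above, as does that of AHI1, which was not called.

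TMEM67, the receptor-like membrane protein also named meckelin, stood at 1.94, 2.12 and 2.08 CPM with siNC and 3.17, 5.54 and 4.29 CPM with siE7, with each siE7 library higher (log2 fold change 1.08 ± 0.25 SE, edgeR adjusted p = 0.00657). TMEM216 stood at 1.86, 3.002 and 3.56 CPM with siNC and 6.28, 5.69 and 4.97 CPM with siE7, also apart (log2 fold change 1.00 ± 0.25 SE, edgeR adjusted p = 0.00924). TMEM231 stood at 7.62, 5.84 and 5.38 CPM with siNC and 11.7, 11.1 and 9.68 CPM with siE7, and its groups were apart as well (log2 fold change 0.79 ± 0.18 SE, edgeR adjusted p = 0.0071). The call of TMEM231 was lost without siNC replicate 3, at an adjusted p of 0.0511, within a range of 0.000279 to 0.0511 over its alternatives.

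The tectonic genes, whose products join the gate's membrane complex, went different ways. TCTN2 stood at 6.97, 7.17 and 7.65 CPM with siNC and 11.6, 10.8 and 10.6 CPM with siE7, with a small spread and no overlap (log2 fold change 0.60 ± 0.16 SE, edgeR adjusted p = 0.0119), and its call was lost without siNC replicate 1 and without siNC replicate 2. TCTN3 stood at 8.83, 9.37 and 8.33 CPM with siNC and 6.51, 5.80 and 6.28 CPM with siE7. Here all siE7 libraries were lower than all siNC libraries (log2 fold change -0.51 ± 0.16 SE, edgeR adjusted p = 0.0315). The call of TCTN3 was lost under 8 of 14 alternatives, library totals and the replicate block among them, though its log2 fold change stayed between -0.61 and -0.35. TCTN1 was not called, at 0.72 ± 0.31 (SE). CC2D2A was the nearest to no change, at -0.01 ± 0.15, and the other members not called ran from -0.33 for AHI1 to 0.51 for RPGRIP1L.

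Of the 5 genes of the basal body and its cap only CEP164 was called, and the median was 0.249. That median was 0.428 without siE7 replicate 1, 0.152 without siE7 replicate 2, 0.0731 without siE7 replicate 3, 0.151 without siNC replicate 3 and 0.43 with library totals. CEP164, a protein of the distal appendages that docks the basal body, was the highest member in CPM, at 123, 135 and 130.0 CPM with siNC and 240.4, 192 and 177 CPM with siE7. The groups were apart, with replicate 1 of siE7 highest (log2 fold change 0.65 ± 0.13 SE, edgeR adjusted p = 0.00295). CCP110, which caps the centriole and is removed before a cilium grows, stood at 12.2, 13.9 and 10.1 CPM with siNC and 8.94, 13.3 and 15.5 CPM with siE7, overlapping and near 0 (log2 fold change 0.06 ± 0.21 SE, edgeR adjusted p = 0.851). TTBK2, the kinase that acts in its removal, stood at -0.06 ± 0.16. Without siE7 replicate 1 the appendage gene CEP83 and the centriole gene OFD1 were also called, which made 3 of 5.

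Per kilobase of canonical transcript, the siNC means of the members ran from 0.119 CPM for BBS12 to 23.5 CPM for IFT46. Within the IFT-B complex they ran from 0.658 CPM for IFT80 to 23.5 CPM for IFT46, so that subunits of that complex differed widely in level. IFT46, CEP164 with 23.0 CPM and IFT20 with 16.4 CPM per kilobase led with siNC. With siE7 the highest were CEP164 with 36.1, IFT20 with 29.9, IFT46 with 29.0 and IFT43 with 24.4 CPM per kilobase.

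Other genes of the pathway came from 7 further lists, in which 18 of 66 tested genes were higher (27.3%) and 8 lower (12.1%). Among the other IFT and motor subunits 7 of 12 were higher and 1 lower. TRAF3IP1, the IFT-B subunit IFT54, rose by 0.87 on the log2 scale, DYNC2I1, an intermediate chain of the retrograde dynein, by 1.03, and TTC30A by 1.04, the last with a near-identical copy, TTC30B, with which it may share reads. DYNC2I2, the other intermediate chain, fell by 0.49. DYNLT2B failed the filter on low counts.

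Among other BBSome and transition zone genes 3 of 11 were higher and 1 lower. Without siE7 replicate 1 the calls were 6 higher and 0 lower. LZTFL1, a regulator of BBSome traffic, rose by 1.34 on the log2 scale and TMEM107, of the gate membrane, by 0.89. Among other basal body genes 3 of 12 were higher (CEP89, FBF1 and KIF24) and 2 lower (RAB8A and KIAA0586), 5 calls in all. With a library left out this number ran from 2, without siNC replicate 1 or 3, over 3, without siNC replicate 2 or siE7 replicate 2, to 7 without siE7 replicate 1. All genes called ran from 3153 to 8765 in such fits, beside 4990 with all libraries.

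The lists of ciliary membrane, Hedgehog and disassembly genes hold genes that act in or on the cilium but do not build it. In them the shares called ran from 12.5% to 25% higher and from 12.5% to 20% lower. Of all tested genes 18.0% were higher and 16.0% lower, and few genes stand behind each list. Of 10 ciliary membrane genes, TULP3 and EVC2 were higher and EVC and GPR161 lower (20% each way). These 4 calls were 2 when any single siNC library was left out and 7 without siE7 replicate 1. Of 8 tested Hedgehog genes, GAS1 and GLI2 were higher and GLI3 lower (25% and 12.5%), with GLI2 at 0.574 CPM at most, while GLI1 failed the filter on low counts. Without siE7 replicate 1 the calls were 1 higher and 2 lower, and with any other single library left out, or with at least 10 counts asked of every library, 1 gene was called. DESeq2 called 1 gene higher and 1 lower. Of 8 genes of cilium disassembly, NEK2 was higher and PLK1 lower (12.5% each way), and these 2 calls were 4 without siE7 replicate 1 and 1 when any other single library was left out. With the GC trend removed the calls were 9 in the list of other basal body genes, 7 in that of ciliary membrane genes and 6 in that of disassembly, and with library totals 5 in the last. Calls over all genes shifted as well. They were 24.5% higher and 26.0% lower with the GC trend removed, 27.5% and 11.1% with library totals, and 28.9% and 29.5% without siE7 replicate 1. The kinase AURKA stood at -0.17 ± 0.11 (SE). Of the 5 RFX genes tested none was called by edgeR with all libraries, with 0 at an unadjusted p under 0.05 and 0 by DESeq2. RFX4 and FOXJ1 are not listed in the table. The log2 fold changes were 0.28 for RFX1, -0.20 for RFX2, -0.67 for RFX3, -0.07 for RFX5 and -0.27 for RFX7. Without siE7 replicate 1, RFX2 was called lower, at -0.34 ± 0.135 (SE, edgeR adjusted p = 0.0302), and the other 4 were not called.

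**Figure D5:**
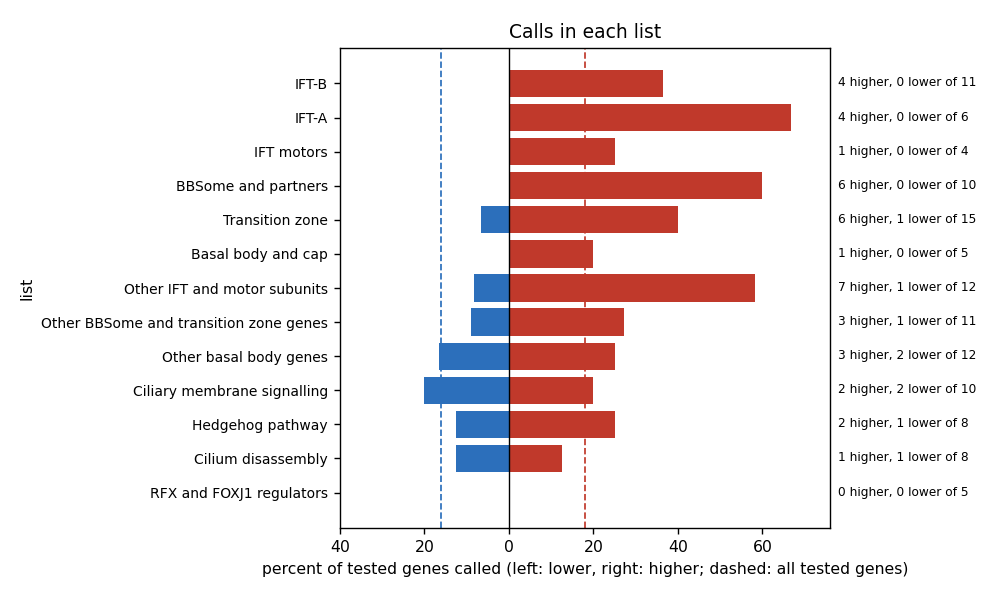
Percent of tested genes called higher (right, red) and lower (left, blue) at an adjusted p under 0.05 in each role group with more than 1 gene and in 7 further lists (y axis), with dashed lines at 18.0% and 16.0% for all tested genes. IFT-A, the BBSome and the other IFT subunits reach furthest right, and the RFX list has no called gene with all libraries.

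The proliferation markers moved in both directions. Of 7, 4 were lower and 1, PCNA, higher, and their summed level was 1797 to 1800.2 CPM with siNC and 660.3 to 699.2 CPM with siE7, most of that difference from MKI67 itself. TOP2A fell by 0.74, MCM2 by 0.58 and CCNB1 by 0.42 on the log2 scale, while PCNA rose by 0.43. CDK1 (-0.72 ± 0.31 SE) and CCNA2 (0.27 ± 0.15 SE) were not called. Of all tested genes 16.0% were lower and 18.0% higher. Without siE7 replicate 1, 5 of the markers were lower and 2 higher, beside 29.5% and 28.9% of all genes in that fit. The part of a change in cycling cells in the levels of the cilium genes was not tested.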

How the data were processed

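RNA of 6 SCC-9 libraries (3 siNC, 3 siE7, named NS and siKi in the titles) was sequenced by the authors as strand-specific mRNA libraries. The deposited table holds read counts per gene without normalization. The submitters' processing notes name HISAT2, DESeq2 and GRCh38, and the counting tool is not given in the sources used here. Groups came from the titles. Counts were filtered by filterByExpr of edgeR 4.0.16 (R 4.3.3), which kept 14661 of 25349 genes, scaled by TMM and tested by the quasi-likelihood F-test with robust dispersions, without a block, since same-numbered libraries did not deviate together (r from -0.0789 to -0.0191). On simulated data with 200 changed genes the fit called 95 of 100 at a log2 fold change of 1.5, 47 of 100 at 0.75 and 7 of 14287 unchanged genes. The simulation gave every gene the same dispersion, and no library stood apart in it. These rates may therefore not hold for the libraries here. Levels are TMM-scaled CPM, with 0.5 CPM added for log2 ratios. Transcript length, GC content and overlaps came from GENCODE release 44, with 25283 identifiers matched without version, and promoters from RefSeq. Members with values in every library were those called, the highest per kilobase of each group and those nearest to no change. Alternatives were DESeq2 1.42.0, other scalings and filters, a replicate block, removal of the GC trend (lowess, span 0.3) and each library left out. A few genes of the other lists are counted but not reported here by name. The members and lists were chosen with earlier results of these data known. Tables and figures were made with Python 3.11.15, pandas 2.3.3 and matplotlib 3.10.9.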

Additional observations from a re-analysis of the deposited data

How the results depend on the processing

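Over 14 alternatives no member called in the main comparison changed direction, and 15 of the 22 members called higher stayed so in every alternative that gave them a value. With each library left out in turn, the members called ranged from 16 to 36 (23 with all libraries), those called higher from 16 to 35 (22) and those called lower from 0 to 1 (1). All genes called ranged from 3153 to 8765 (4990), those higher from 1598 to 4343 (2639), those lower from 1552 to 4422 (2351), and the genes called in the 7 other lists from 16 to 37 (26). The highest counts came without siE7 replicate 1. The number of members called lower was 0 with library totals, 0 without the filter on low counts, 0 with the replicate block and 2 with the GC trend removed. Library totals gave 4030 genes called higher and 1632 lower, and removal of the GC trend 3808 lower. With the replicate block 21 members were called, all higher, and 11 passed the fold, so the block ended the call of TCTN3. The same numbers in the titles did not pair the libraries. The cause of these shifts was not tested. Depth limits the low genes most: BBS12 and ARL6, with as few as 3 and 5 counts in a library, had the widest standard errors, 0.59 and 0.63.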
